A study of Rattus norvegicus with 10 samples.

Results

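The liver enzymes that turn the amino acid tryptophan into NAD, with the neighbouring steps that recycle or clear nicotinamide, were followed gene by gene in rats exposed to drug factory effluent. The 10 genes Tdo2, Afmid, Kmo, Kynu, Haao, Acmsd, Qprt, Nadsyn1, Nampt and Nnmt were chosen by name, because Qprt had been seen to be higher in exposed livers and the question was whether neighbouring steps shared this. All 10 were measured, by 14 of 31042 probe sets, a probe set being the group of short probes on the array that together read 1 transcript. The array named 14217 genes in all. Because the values of Qprt in exposed and control livers led to the choice, its difference is given as a description with no test, and so are the differences of the other genes.

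Liver RNA came from 10 male Sprague-Dawley rats, 5 given short-term exposure to the effluent of bulk drug industries and 5 labelled as controls. No genotype, age, dose, route or length of exposure is given in the sources used here, nor what the controls received. Values are log2 values per probe set, so a difference of 1 is a 2-fold change, and values of different probe sets are not comparable with one another. The 10 arrays had medians between 5.43 and 5.49 and correlated with each other between 0.991 and 0.996. Of 8 hepatocyte markers 7 were measured, with means between 13.54 and 14.99. In whole liver, fewer cells of a type and less RNA per cell cannot be told apart.

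Liver is the main site where tryptophan is broken down along the kynurenine pathway. Tdo2 opens the indole ring, Afmid releases kynurenine, and Kmo, Kynu and Haao carry it to an unstable semialdehyde. Acmsd takes this intermediate away from NAD synthesis, whereas the part that escapes closes by itself to quinolinate, which Qprt converts to nicotinic acid mononucleotide. Nadsyn1 performs the last step, the amidation to NAD. Nampt recycles nicotinamide to NAD by a separate route, and Nnmt methylates nicotinamide so that it is lost from that route.

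Qprt was higher in all 5 exposed livers on 1 of its 2 probe sets, whereas 7 of the other 9 genes had lower means in exposed livers and 2 had higher ones, with differences between -0.36 and 0.01. The count of 2 was unsteady, since several of these differences were close to 0. It was 0 without exposed animal 3, 1 without exposed animals 2 or 4 or control animals 1, 4 or 5, and 3 without exposed animals 1 or 5 or control animal 3. Among all 14217 genes, 49.1% had a higher and 50.9% a lower mean in exposed livers, and nothing is read from the count of members beside it.

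Across the array, limma called 0 of 31042 probe sets at an adjusted p of 0.05 (0.00%), and 0 of the 14 member probe sets. At an unadjusted p under 0.05, limma gave 1695 probe sets (5.46%). Of the 14 member probe sets 4 did so, the Qprt probe set that led to the choice and the 3 of Afmid, which read 1 gene. Nothing is read from this count, since Qprt was chosen from the same contrast and the Afmid probe sets are not independent. Exposed and control livers did not overlap for 277 probe sets (0.892%), 177 of them higher in exposed livers (0.570%), and for 1 member probe set, that of Qprt.

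Qprt, quinolinate phosphoribosyltransferase, read 10.85, 10.79, 10.91, 10.70 and 10.88 in exposed animals 1 to 5, against 10.60, 10.54, 10.67, 10.53 and 10.49 in control animals 1 to 5, on its brighter probe set (1372672_at). Every exposed animal lay above every control, and the lowest exposed and the highest control animal were 0.032 apart. The means were 10.83 ± 0.08 in exposed and 10.57 ± 0.07 in control livers (SD, n = 5 each). Exposed livers were thus 0.26 ± 0.06 (SE) higher, which is 1.20-fold with a 95% interval of 1.09-fold to 1.31-fold. The difference was small, and so was the spread between animals of a group. Only 10.0% of probe sets had a smaller pooled SD. Without each animal in turn the difference lay between 0.24 and 0.29.

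The other Qprt probe set (1382244_at) did not repeat this. It read 7.46, 7.51, 7.32, 7.77 and 7.50 in exposed animals, against 7.51, 7.47, 7.60, 7.77 and 7.43 in control animals. The groups overlapped throughout, and the difference was -0.04 (95% interval -0.24 to 0.15). After removal of group means, the pair of Qprt probe sets correlated at -0.45 over the 10 animals, whereas the pair for Nampt correlated at 0.95 and the 3 for Afmid at 0.90 to 0.95. The correlations between probe sets of a gene are descriptions over the same arrays. Which of the Qprt probe sets follows its transcript was not tested, since probe sequences were not used here.

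**Figure D1:**
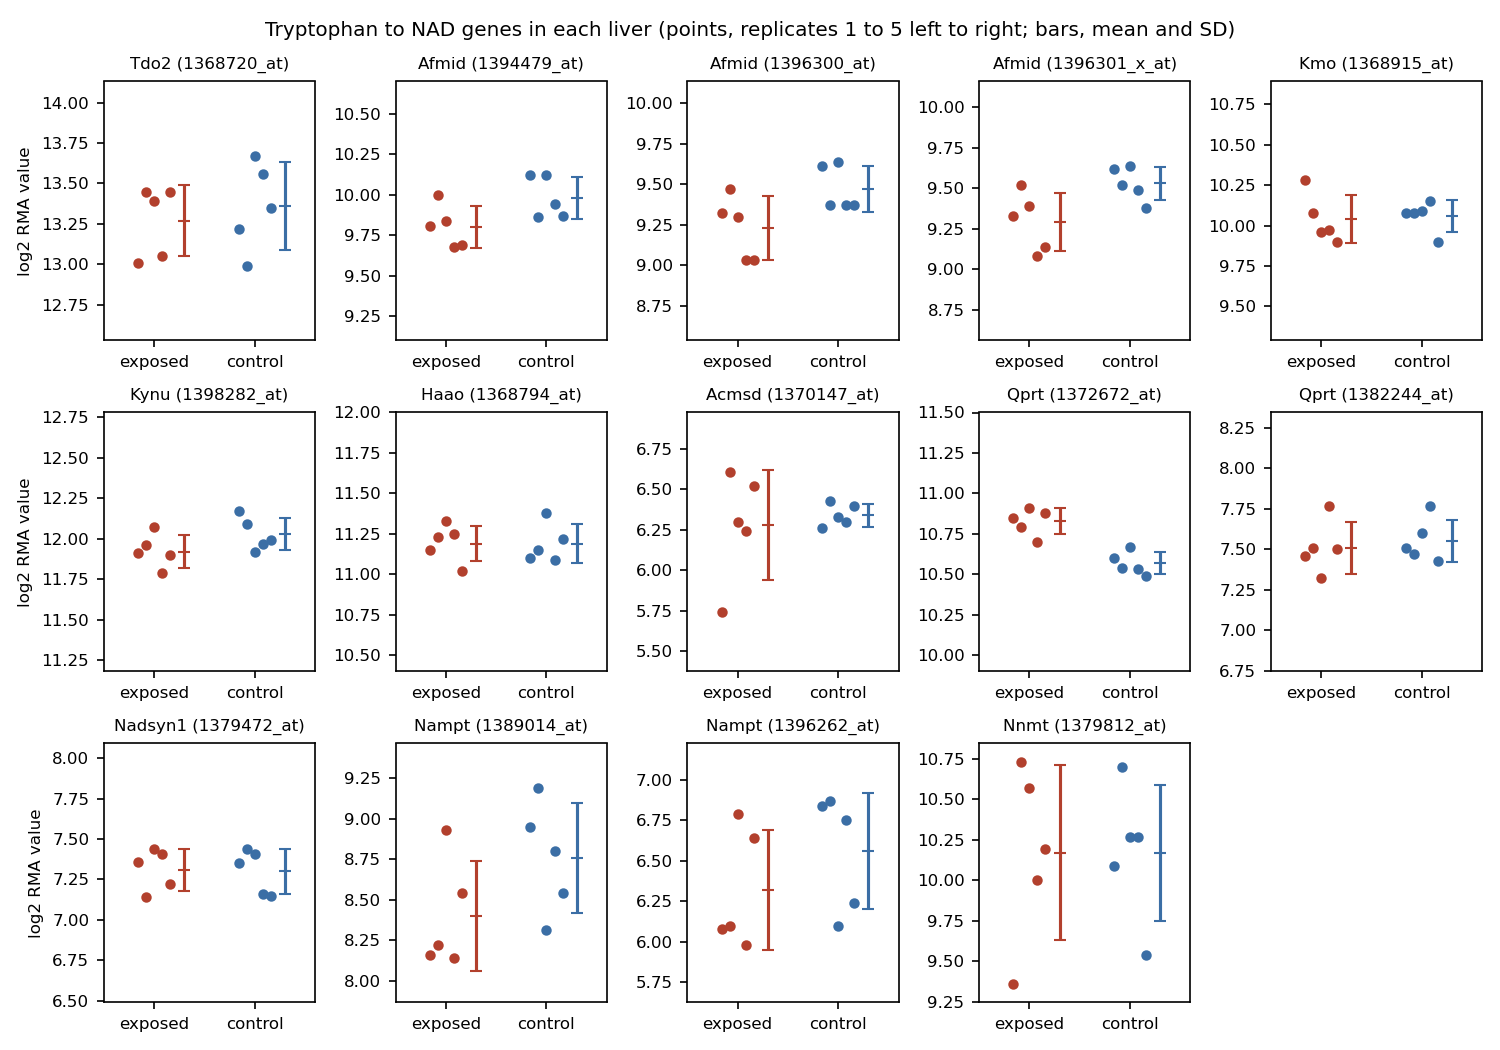
Log2 values (vertical axes, all of the same span) of the 14 probe sets of the 10 genes in 5 exposed and 5 control livers, with each point an animal and each bar the group mean and SD. The groups stand apart on the Qprt probe set 1372672_at and overlap on the 13 others, and Nampt and Nnmt vary most between animals.

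Tdo2, tryptophan 2,3-dioxygenase, is the entry step and in rat liver a classical target of glucocorticoids. It read 13.01, 13.45, 13.39, 13.05 and 13.45 in exposed animals, against 13.22, 12.99, 13.67, 13.56 and 13.35 in controls. High and low animals occurred in both groups, and the difference was -0.09 (95% interval -0.38 to 0.20). Tdo2 varied more between animals of a group than 92.4% of probe sets, with a pooled SD of 0.25 against a median of 0.13 over all probe sets.

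Afmid, the formamidase that follows Tdo2, had lower means in exposed livers on all 3 of its probe sets. The brightest (1394479_at) read 9.81, 10.00, 9.84, 9.68 and 9.69 in exposed animals, against 10.12, 9.86, 10.12, 9.94 and 9.87 in control animals. Exposed animal 2 lay within the range of the controls and the other exposed animals below their lowest value, for a difference of -0.18 (95% interval -0.35 to -0.01). The other probe sets differed by -0.24 (-0.46 to -0.03) and -0.24 (-0.43 to -0.05), with all 5 exposed animals below the control mean on each. The platform annotation lists the same source sequence for this pair, so they were not taken as independent readings. Without each animal in turn the brightest stayed between -0.23 and -0.15.

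Of the 3 middle enzymes, Kmo and Haao were close to level and Kynu had a slightly lower mean in exposed livers. Kmo, kynurenine 3-monooxygenase, read 10.28, 10.08, 9.96, 9.97 and 9.90 in exposed animals, against 10.08, 10.08, 10.09, 10.15 and 9.90 in controls, a difference of -0.02 (95% interval -0.20 to 0.15). Exposed animal 1 was the highest of all and the groups otherwise overlapped. Kynu, kynureninase, ranged from 11.79 to 12.07 with a median of 11.91 in exposed livers, against 11.92 to 12.17 with a median of 11.99 in control livers, a difference of -0.10 (-0.26 to 0.05). Exposed animals 1, 4 and 5 lay below every control, and without each animal in turn the difference stayed between -0.14 and -0.07. Haao, which makes the semialdehyde, ranged from 11.02 to 11.33 in exposed and from 11.09 to 11.38 in control livers, with a difference of 0.01 (-0.16 to 0.17).

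Acmsd, the branch that draws intermediate away from Qprt, read 5.74, 6.61, 6.30, 6.24 and 6.52 in exposed animals, against 6.26, 6.43, 6.33, 6.30 and 6.40 in controls. Exposed animal 1 had the lowest value of all and exposed animals 2 and 5 the highest, so the exposed livers spread on both sides of a narrow control range. The SD was 0.34 in exposed and 0.07 in control livers (n = 5 each), and a test of that difference in spread was not run. The means differed by -0.06 (95% interval -0.35 to 0.22), and by 0.07 without exposed animal 1.

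Nadsyn1, NAD synthetase, acts after the product of Qprt has been adenylated. It ranged from 7.14 to 7.44 with a median of 7.36 in exposed livers, against 7.15 to 7.44 with a median of 7.35 in control livers. The ranges were nearly the same, with a difference of 0.01 (95% interval -0.17 to 0.19).

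Nampt, nicotinamide phosphoribosyltransferase, had the largest difference of the 10 genes in size and the widest range but that of Nnmt. Its brighter probe set (1389014_at) read 8.16, 8.22, 8.93, 8.14 and 8.54 in exposed animals, against 8.95, 9.19, 8.31, 8.80 and 8.54 in controls. Exposed animals 1, 2 and 4 lay below every control, while exposed animals 3 and 5 lay within the control range and control animals 3, 4 and 5 within the exposed range. The difference was -0.36 (95% interval -0.74 to 0.03), between -0.49 without exposed animal 3 and -0.25 without control animal 2. The other probe set read 6.08, 6.10, 6.79, 5.98 and 6.64 in exposed animals, against 6.84, 6.87, 6.10, 6.75 and 6.24 in controls. It followed the same animals, with a difference of -0.24 (-0.66 to 0.17).

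Nnmt, nicotinamide N-methyltransferase, read 9.36, 10.73, 10.57, 10.00 and 10.19 in exposed animals, against 10.09, 10.70, 10.27, 10.27 and 9.54 in controls. The means were level at 10.17 ± 0.54 in exposed and 10.17 ± 0.42 in control livers (SD, n = 5 each), with a difference of 0.00 and a wide 95% interval of -0.54 to 0.54. Its pooled SD of 0.48 exceeded that of 98.9% of probe sets, and the SD of Nampt exceeded that of 97.0%. The low animals, exposed animal 1 and control animal 5, belonged to different groups.

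**Figure D2:**
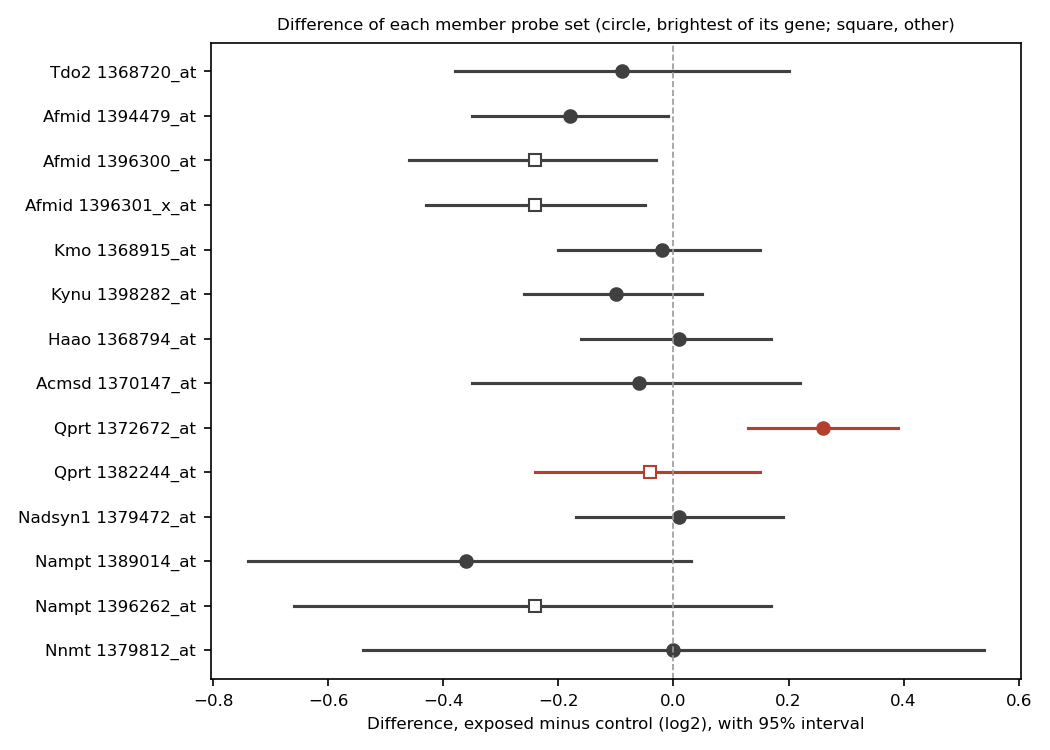
Difference in log2 value, exposed minus control (horizontal axis), for each member probe set with its 95% interval from limma; circles are the brightest probe set of a gene, squares the others, and Qprt is in red. The brighter Qprt probe set lies at 0.26, the other at -0.04, and the 3 Afmid probe sets lie between -0.24 and -0.18.

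Co-variation between animals uses the spread inside each group, which had no part in the choice of genes. With group means removed, 16 relations were computed over the 10 animals and tested by two-sided exact permutation within groups (14400 orders). None passed after Benjamini-Hochberg adjustment, with 0 of 16 pairs at an unadjusted p under 0.05 and an adjusted p of 0.917 for each. The highest r with Qprt over all 10 animals was that of Afmid (r = 0.50, exact permutation p = 0.178, rho = 0.39, p = 0.297), and r was 0.42 without the 2 animals farthest from the Qprt median. For Tdo2 r was 0.43 (exact permutation p = 0.242, rho = 0.31, p = 0.406), and 0.44 without those 2 animals. Nadsyn1 had the highest rho (r = 0.34, exact permutation p = 0.353, rho = 0.47, p = 0.204), but r was -0.01 without those 2 animals, so the order of the genes depended on the measure. With Kynu r was 0.38 (exact permutation p = 0.310, rho = 0.32, p = 0.397) and 0.10 without the 2 animals. Qprt and Acmsd, which lie on different branches from the same intermediate, gave r = -0.11 (exact permutation p = 0.789, rho = -0.04, p = 0.924), and r stayed at -0.11. Weak and moderate relations would not be detectable with 10 animals, since r = 0.50 gave an exact permutation p of 0.178 before adjustment.

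Nampt is known in mouse liver as an output of the circadian clock, so it was set beside Dbp and Bmal1, a clock output gene and a core clock gene that peak at opposite phases. Dbp read 7.28, 6.79, 8.65, 8.80 and 9.47 in exposed animals, against 5.80, 6.50, 6.97, 8.67 and 9.34 in controls, which is a wide range in both groups. No relation of Nampt with Dbp was detectable (r = -0.04, exact permutation p = 0.917, rho = -0.19, p = 0.630), with r = 0.01 without the 2 animals farthest from the Dbp median. With Bmal1 r was 0.04 (exact permutation p = 0.909, rho = 0.04, p = 0.922), and 0.09 without 2 animals. Bmal1 itself averaged 6.99 ± 0.63 in exposed and 7.52 ± 0.53 in control livers (SD, n = 5 each), a difference of -0.53 (95% interval -1.18 to 0.11), and Dbp differed by 0.75 (-0.70 to 2.20). Between animals with the same replicate number, all 5 differences had 1 sign for each of these genes, from 0.13 to 1.69 for Dbp and from -0.76 to -0.25 for Bmal1. For the other clock genes Nr1d1, Clock and Per1 the signs were mixed. Their means differed by 0.43 (95% interval -0.31 to 1.17), -0.22 (-0.46 to 0.02) and 0.07 (-0.10 to 0.24), in that order. In each of them exposed animal 1 lay above, and exposed animal 2 below, the control animal of the same replicate number. For Clock, exposed animal 1 (7.93 against 7.88) was the only one above its same-numbered control. The intervals just given take no account of the replicate numbers. The part of the clock in the Nampt difference was not tested.

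Tdo2 was set beside 2 other glucocorticoid-responsive liver genes. With Tat, tyrosine aminotransferase, r was 0.20 (exact permutation p = 0.598, rho = 0.16, p = 0.679) and 0.35 without 2 animals. With Fkbp5, a co-chaperone of the glucocorticoid receptor, r was -0.12 (exact permutation p = 0.746, rho = -0.15, p = 0.687) and -0.38 without 2 animals. Fkbp5 averaged 7.22 ± 0.20 in exposed and 7.47 ± 0.16 in control livers (SD, n = 5 each), a difference of -0.25 (95% interval -0.47 to -0.02).

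**Figure D3:**
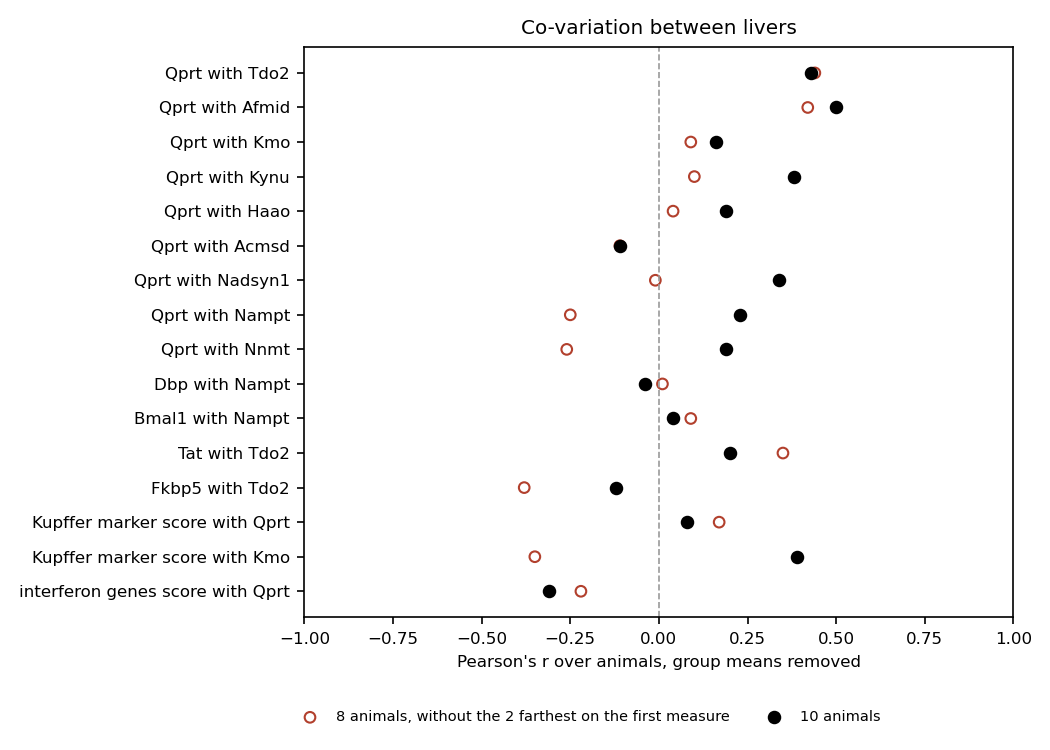
Pearson's r between pairs of genes, or between a gene list score and a gene, over animals with group means removed (horizontal axis), for all 10 animals (filled) and for 8 animals without the 2 farthest from the median of the first-named measure (open). The highest value over 10 animals is 0.50, for Qprt with Afmid, and Nampt lies at -0.04 with Dbp and 0.04 with Bmal1.

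By the same measure, the genes whose values followed the brighter Qprt probe set most closely among 12654 brighter probe sets were Plgrkt (r = 0.947), Tusc3 (0.929), Bbip1 (0.926), Ciao3 (0.923) and Enpp5 (0.922). These values are a description over 10 animals, chosen as the highest of many. Enpp5 averaged 8.49 in exposed and 8.19 in control livers, Ciao3 7.33 in both. None of the 5 is a member of the pathway lists used here.

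The wider pathway held no called gene. Of 48 further genes 37 were measured, 20 with a higher and 17 with a lower mean in exposed livers, and their median difference was 0.012 against -0.002 over all genes. Limma called 0 of the 37, and 0 had an unadjusted p under 0.05. Tryptophan uptake and its other uses (8 of 10 genes measured, 3 higher and 5 lower, median -0.04) ran from Tat at -0.14 (95% interval -0.54 to 0.25) to the amino acid transporter Slc7a8 at 0.11 (-0.08 to 0.30). Tat acts on tyrosine but was kept in this list and in its counts. The other kynurenine enzymes (6 of 10, 3 higher and 3 lower, median -0.03) ran from the transaminase Kyat1 at -0.13 (-0.29 to 0.03) to Ido1 at 0.19 (-0.05 to 0.42).

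Other enzymes of NAD and NADP synthesis (11 of 12 measured, 7 higher and 4 lower, median 0.05) ran from Nmrk2, a nicotinamide riboside kinase, at -0.12 (95% interval -0.29 to 0.05) to its relative Nmrk1 at 0.14 (-0.15 to 0.43). Nmnat1, the nuclear adenylyltransferase that acts on the product of Qprt, differed by -0.12 (-0.33 to 0.10). Naprt, which makes the same mononucleotide as Qprt from dietary nicotinic acid, differed by -0.01 (-0.19 to 0.17). Genes that use NAD or clear nicotinamide (12 of 16, 7 higher and 5 lower, median 0.02) ran from Parp4 at -0.05 (-0.30 to 0.19) to the ADP-ribosyl cyclase Bst1 at 0.19 (-0.08 to 0.46). Nmrk2, Nmrk1 and Bst1 had group means between 4.18 and 4.80, below the median of every array.

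**Figure D4:**
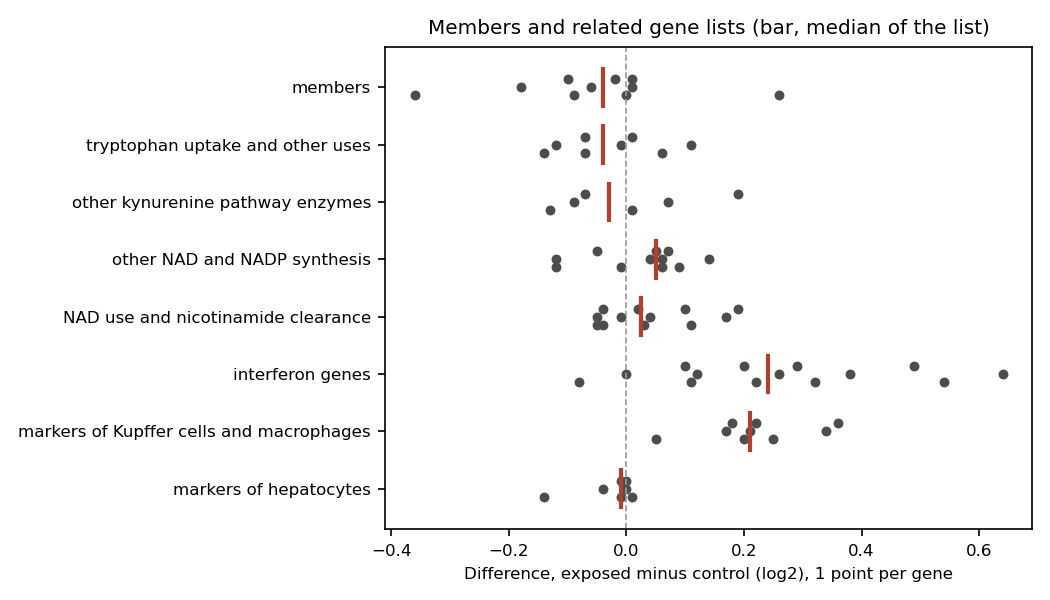
Difference in log2 value, exposed minus control (horizontal axis), with 1 point per gene and the list median as a red bar. The 4 pathway lists centre between -0.04 and 0.05, the interferon list at 0.24 and the Kupffer cell list at 0.21. The Kupffer cell median depends on 1 low control animal.

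Kynurenine enzymes also occur outside hepatocytes, since macrophages express Kmo and Kynu and interferon induces Ido1. Markers of Kupffer cells, the macrophages of liver, had higher means in exposed livers for 9 of 9 measured genes, against 49.1% of all genes. Their median difference was 0.21, with 0 called and 0 at an unadjusted p under 0.05, and each had a mean of 7.03 or above over all arrays. Control animal 5 had the lowest value of all animals on each marker, for example 7.65 for Cd68 against 8.32 to 8.87 in the other controls. This animal lowered each control mean, so the count of 9 and the median of 0.21 depend on it, and neither was computed without it. For Cd163 the other controls read 7.19, 7.44, 7.33 and 6.67, against an exposed mean of 7.05. Within the exposed group animal 3 was the lowest on each marker. No shift of these markers is read from the count. The marker score, the mean over markers of each value minus its mean over all animals, lay between -0.53 and 0.39 in exposed and between -0.87 and 0.32 in control livers. Its correlation with Qprt was 0.08 (exact permutation p = 0.817, rho = 0.24, p = 0.531), or 0.17 without 2 animals. With Kmo it was 0.39 (exact permutation p = 0.272, rho = 0.27, p = 0.467), but -0.35 without control animal 5 and exposed animal 3, so that relation rests on these animals.

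Interferon-induced genes had higher means in exposed livers for 12 of 14 measured, against 49.1% of all genes (median difference 0.24). Limma called 0 of the 14 and gave 7 at an unadjusted p under 0.05, against 5.46% of all probe sets. The list was chosen with earlier results of these data known, so the counts are a description. The score of these genes lay between -0.07 and 0.30 in exposed and between -0.17 and -0.08 in control livers. Its correlation with Qprt inside the groups was -0.31 (exact permutation p = 0.488, rho = -0.28, p = 0.468), or -0.22 without 2 animals. Ido1, the interferon-induced counterpart of Tdo2, read 4.40, 4.55, 4.21, 4.84 and 4.64 in exposed animals, against 4.49, 4.38, 4.34, 4.38 and 4.11 in controls. These values lie low on the scale and the groups overlapped. Lymphocyte markers had higher means for 6 of 7 (median 0.14), but their mean levels, 4.48 to 5.78, lie low on the scale. Stellate cell markers had higher means for 4 of 6 (median 0.04), endothelial markers for 3 of 4 (0.03), bile duct markers for 1 of 4 (-0.06) and hepatocyte markers for 1 of 7 (-0.01). The part of these cells in the Qprt difference was not tested.

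Promoter sequence was read for the 7 members listed in the RefSeq table (assembly GRCr8), over the 250 bases before each start. Those of Acmsd, Nampt and Nnmt were not used here. The motifs searched on both strands were the E-box of the clock factors (CACGTG), the core of the interferon-stimulated response element (GAAA and GAAA with any 2 bases between), the glucocorticoid response element (GNACA and TGTNC with any 3 bases between, N being any base) and a direct repeat bound by nuclear receptors (AGGTCA and AGGTCA with any 1 base between). Among 27457 promoters, 5.79%, 3.29%, 0.364% and 0.0546% held them, in that order. Kmo was the only one of the 7 members with a match, to the interferon core, between 217 and 208 bases before the start. In the list of interferon genes, 7 of 11 promoters held that core.

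The promoters of Qprt, of Afmid and of Kmo are shown because the first 2 have differences of opposite sign and Kmo holds the match, printed in capitals. They lie at chr1:191164007-191164256 on the minus strand, chr10:103544624-103544873 on the plus strand and chr13:90089271-90089520 on the plus strand, and each is written 5′ to 3′ along its gene.
Qprt: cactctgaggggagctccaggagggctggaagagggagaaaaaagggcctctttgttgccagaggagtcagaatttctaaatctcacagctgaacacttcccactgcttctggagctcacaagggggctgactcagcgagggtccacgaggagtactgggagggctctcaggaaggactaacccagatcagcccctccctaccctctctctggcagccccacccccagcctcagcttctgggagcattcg
Afmid: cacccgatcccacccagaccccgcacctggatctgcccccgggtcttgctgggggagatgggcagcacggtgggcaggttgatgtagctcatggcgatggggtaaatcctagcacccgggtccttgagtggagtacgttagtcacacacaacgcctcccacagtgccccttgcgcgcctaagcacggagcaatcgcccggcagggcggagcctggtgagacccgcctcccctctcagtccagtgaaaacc
Kmo: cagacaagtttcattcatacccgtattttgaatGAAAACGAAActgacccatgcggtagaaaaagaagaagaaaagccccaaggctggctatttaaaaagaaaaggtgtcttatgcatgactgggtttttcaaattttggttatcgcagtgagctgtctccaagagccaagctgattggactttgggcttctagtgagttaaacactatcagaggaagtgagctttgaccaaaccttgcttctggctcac
A match describes the letters in this window and is not evidence of binding. The values of Kmo given above were level between the groups, with exposed livers at 10.04 ± 0.15 and control livers at 10.06 ± 0.10 (SD, n = 5 each). A response of Kmo to interferon was not tested.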

How the data were processed

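Per the submitters' processing notes, the authors used R 2.8.1 and RMA, a method that subtracts background, equalises the arrays and combines the probes of a set, so shifts shared by most genes of an array are removed. The deposited numbers range from 2.19 to 15.0 and were taken as log2 values from that range. Of 31099 probe sets, 57 control sets were left out. Gene names came from the platform annotation, where 20826 probe sets name 1 gene, 436 several and 9780 none here, and 20758 of the named were found in the RefSeq gene table for GRCr8 by Entrez number. Where 1 value per gene was needed, the brightest probe set of the gene was taken, and all probe sets of members are given.

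Groups were compared with limma 3.58.1 in R 4.3.3 (lmFit, eBayes, two-sided) over all 31042 probe sets, with Benjamini-Hochberg adjustment, and SE and 95% intervals come from that fit. The precision is limited by 5 arrays per group. The fit and the permutation test were tested on simulated data. Correlations were computed in Python 3.11.15. Members and lists were chosen with earlier results of these data known. From each pathway list the genes with the highest and lowest difference are named, and Nmnat1 and Naprt, outside that rule, were added after their values were seen. Alternatives were quantile normalization, median centring, a filter on low values, array weights, a replicate block, another prior, an RNA quality covariate and leaving out each array.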

Additional observations from a re-analysis of the deposited data

Results flagged for a closer look

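One animal stood apart from its group, by the gap to its nearest neighbour over the range of the group, among 50 groups of 5 values checked, where chance gives about 1 in 20. Control animal 5 read 9.90 for Kmo, with the other controls between 10.08 and 10.15. Exposed animal 5 read 9.90 as well. Control animal 5 also had the highest 3′ to 5′ ratio of Gapdh and beta-actin control sets, a sign of RNA quality. Averaged over these genes, the log2 of this ratio was 0.735 (exposed animals 0.494 to 0.604, other controls 0.508 to 0.626). The part of RNA quality in the Kmo value of this animal was not tested.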

How the results depend on the processing

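The Qprt difference of 0.26 lay between 0.23 (RNA quality covariate) and 0.29 over 17 alternatives. None of 238 member differences under alternatives moved by as much as 1 SD between animals. Little is read from this, since leaving out 1 of 5 animals cannot move a difference so far. The filter, the other prior and the replicate block left the differences themselves unchanged. With a replicate block the Qprt difference was 0.26 and limma called 0 probe sets. The labels do not say what the replicate numbers stand for, and over all probe sets the deviations of same-numbered animals from their group means correlated between -0.07 and 0.094. The numbers were therefore not used as pairs, but Dbp and Bmal1 varied with them. With the replicate block, a fit for these genes added after seeing the data, Dbp differed by 0.75 (95% interval 0.19 to 1.30) and Bmal1 by -0.53 (-0.72 to -0.34), neither called over all probe sets. Nr1d1, Clock and Per1 had same-numbered differences of both signs. The count of probe sets called was 0, or 0 to 1 when each array was left out (1 without exposed animal 1). The count of 2 other members with a higher mean became 0 with centring, 4 with quantile normalization, 1 with array weights, 1 with the RNA quality covariate and 0 to 3 when each array was left out. The sign of the smallest differences therefore depends on the scaling. No correlation passed under any alternative. Without 2 animals the sign turned for Qprt with Nadsyn1 (-0.01), Nampt (-0.25) and Nnmt (-0.26), for Dbp with Nampt (0.01) and for the Kupffer score with Kmo (-0.35), where 8 animals remained and the cause was not tested. RMA values do not show which probe sets were too dim to measure.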
